A study of Mus musculus with 12 samples.

Results

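Cajal-Retzius neurons are an early-born, largely transient class of neurons that lies in the outermost layer of the developing cortex and hippocampus. Here they were the 639 of 101742 filtered forebrain nuclei (0.628%) chosen by their UMI counts of 6 genes, as those that held at least 2 UMIs of Reln, at least 2 UMIs in sum of Trp73, Lhx1, Lhx5 and Ebf3, and 0 UMIs of Lhx6. A UMI, or unique molecular identifier, is the tag that marks each captured RNA molecule. The nuclei came from the forebrain of mice at postnatal day 1 and their RNA was sequenced nucleus by nucleus, in 1 library for each of 8 wild-type (WT) and 4 heterozygous (Het) animals. Het animals carried 1 copy of the MYT1L S710fsX allele, a frameshift in Myt1l, a gene for a zinc finger transcription factor of neurons. WT animals, given in the labels under the same strain name, were 5 males and 3 females and are called WT 1 to WT 8. Het animals were 3 males and 1 female and are called Het 1 to Het 4. The female libraries were WT 6, WT 7, WT 8 and Het 4. The labels give no treatment, and the comparison that the design sets is Het against WT, with the animal as the unit. A filtered nucleus had 800 to 6000 UMIs, 300 to 3000 detected genes and at most 1% of its UMIs from mitochondrial genes. The labels name the tissue as forebrain, while the study's methods speak of forebrain for this age in 1 place and of prefrontal cortex for all ages in another, so the part of the forebrain that the nuclei came from is not settled here.

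Cajal-Retzius neurons secrete reelin, the product of Reln, an extracellular protein that binds the receptors Vldlr and Lrp8 on neighbouring neurons and radial glia and leads to phosphorylation of the adaptor Dab1 in them. This signal orders migrating neurons into layers. The cells arise at several borders of the telencephalon, among them the cortical hem, the septum and the thalamic eminence, spread below the pia along signals such as Cxcl12 and its receptor Cxcr4, and most of them die in the first postnatal weeks. Trp73, a relative of Trp53, the LIM homeobox genes Lhx1 and Lhx5 and the helix-loop-helix gene Ebf3 are transcription factors known from them. Lhx6 marks interneurons of the medial ganglionic eminence, some of which also make reelin.

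A library gave between 29 and 85 Cajal-Retzius nuclei, 355 in WT and 284 in Het animals, with 97898 to 304598 UMIs in them. Total UMIs over all barcodes of a library ranged from 15439429 to 40784144, and 0 barcodes were shared between libraries. The Cajal-Retzius nuclei were deeper than the remaining nuclei, with a median of 3111 against 1995 UMIs and of 1665 against 1215 genes. A rule that asks for several UMIs of named genes can take deep nuclei more readily. How far it sets this difference in depth was not tested. A further 144 barcodes met the gene rule without passing the filter, 134 of them for holding more than 6000 UMIs. Of all barcodes that met the gene rule, 17.1% lay above that ceiling, against 7.47% of the other barcodes. A score based on simulated doublets, pairs of nuclei under 1 barcode, marked 10 of the 639 nuclei (1.56%), against 3.70% of filtered nuclei.

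The genes of the rule describe how the nuclei were chosen, and their values are given as a description. Reln, on chromosome 5 from 21884454 to 22344702 on the minus strand (GRCm38), had a median of 55 UMIs in a Cajal-Retzius nucleus, with the middle 50% of nuclei between 26 and 82 and a highest value of 184. CPM is the usual depth-scaled unit, the UMIs of a gene relative to all UMIs of the nuclei summed. In the summed Cajal-Retzius nuclei of a library, Reln ranged over the WT libraries from 10300 in WT 8 to 20510 in WT 7 with a median of 17680, and was 16490, 22040, 19520 and 16930 in Het 1 to Het 4. All other nuclei stood between 200.6 and 325.1 CPM. The 639 nuclei held 34.5% of the Reln UMIs of the filtered nuclei, so most of the Reln message lay outside them. Of the Trp73 UMIs they held 72.0%, of Lhx1 77.9%, of Lhx5 68.0% and of Ebf3 61.7%.

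Trp73 (chromosome 4, 154056253 to 154140208, minus strand) was found in 88.1% of the Cajal-Retzius nuclei and 0.606% of the others, and Ebf3 (chromosome 7, 137193673 to 137314445, minus strand) in 78.4% and 0.628%. Lhx1 was found in 18.2% and 0.0386%, and Lhx5 in 22.4% and 0.0791%. Microglia, which should lack these genes, give the level that free RNA can reach. Among 284 nuclei with at least 3 UMIs of microglial genes, with a median of 1249 UMIs, 11.6% held Reln, 0.704% Ebf3 and 0% Trp73, Lhx1 or Lhx5. At so few and shallower nuclei these shares are a rough guide only, and 17.8% of the other nuclei, with a median of 1995 UMIs, held Reln. A total of 428 of the 639 nuclei held both Trp73 and Ebf3, and 76 held no Trp73. At the edges of the rule, the 19 nuclei with exactly 2 Reln UMIs had a median of 5 UMIs of the 4 transcription factors together, and 43 nuclei that failed only for holding 1 Reln UMI had a median of 3. The 128 nuclei with exactly 2 transcription factor UMIs had a median of 41 Reln UMIs, and 197 nuclei with only 1 had a median of 17. A further 7 nuclei failed only through an Lhx6 UMI, with a median of 68 Reln UMIs, so that part of the rule left out a few nuclei with much Reln. The edge at 1 transcription factor UMI left out nuclei that held Reln, though less than the class median of 55.

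Genes the rule did not use set these nuclei apart from all other filtered nuclei of the same animals. In edgeR's quasi-likelihood test on counts summed per library, with the library as a block, 3175 of 14586 genes outside the rule (21.8%) had an adjusted p under 0.05 and a log2 difference of at least 1, and 664 (4.55%) were higher and 2511 (17.2%) lower in Cajal-Retzius nuclei. The median log2 difference over all genes was -0.23, against -0.13 with another scaling (relative log expression), which called 753 genes higher and 2281 lower. DESeq2 called 688 higher and 1929 lower. Because nuclei and not genes were selected here, the differences describe the class and are no effect of a treatment.

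Further genes known from Cajal-Retzius cells were higher almost throughout. Of 16 such genes on a list, 14 were tested, 12 rose past the threshold and none fell, against the 4.55% of all genes that were higher. Their median log2 difference was 3.50. This list and those that follow were chosen with earlier results of these data known. The count thus describes the nuclei and is no independent check of what they are. Ndnf (chromosome 6, 65671590 to 65712326, plus strand), which encodes a secreted neurotrophic factor, had a mean of 1298 CPM ± 254 (SD, n = 12 libraries) in Cajal-Retzius nuclei and 10.2 in the others, a 113-fold difference (log2 6.82, SE 0.12, adjusted p = 1.39e-34, edgeR). It lay between 842.4 and 1790 CPM in the 12 libraries and between 7.43 and 13.1 in the other nuclei, with no overlap. Nhlh2, a helix-loop-helix factor, was 136-fold higher (log2 7.09, SE 0.21), Car10, a carbonic anhydrase relative without enzyme activity, 31.5-fold (4.98, SE 0.12), and Ebf2 38.6-fold (5.27, SE 0.23). Cacna2d2, a calcium channel subunit, the calcium-binding protein gene Calb2, the cortical patterning gene Emx2 and the nuclear receptor Nr2f2 were higher by log2 3.67, 4.14, 4.01 and 3.34. Slc17a6, the vesicular glutamate transporter of these neurons, rose by 1.39 (SE 0.12) and Tbr1, a factor of early cortical neurons, by 1.09 (SE 0.14). Ebf1 (0.32, SE 0.35) and Spock1 (-0.40) did not pass. Each of the 12 genes stood above the other nuclei in at least 10 of 12 libraries, which is no further evidence for genes already called.

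The 12 genes outside the rule with the largest difference, among those with at least 20 CPM in Cajal-Retzius nuclei, held 10 that were not on the list. Lhx1os, a noncoding RNA beside Lhx1 on the opposite strand (chromosome 11, 84525660 to 84535831), was 285-fold higher, with 48.3 to 152.6 CPM against 0 to 0.486. The purinergic receptor gene P2rx5 was 168-fold higher, the kinase gene Ripk4 96.3-fold and Cd274, which encodes the immune checkpoint ligand PD-L1, 86.3-fold. E330013P04Rik, Samd3, the potassium channel gene Kcnj5, the desmosomal gene Dsp, Gm10475 and Rassf6 were 71.9-, 68.4-, 63.9-, 48.4-, 46.9- and 45.2-fold higher. Gm10475 lies wholly inside Reln on the opposite strand (chromosome 5, 21910931 to 21954014), and without knowledge of strand its UMIs cannot be told apart from those of Reln, a gene of the rule. The genes were picked for their size, so their direction over libraries is no further evidence. Dsp was uneven, with 274.9 CPM in the highest WT library against a WT mean of 59.7 ± 88.2 (SD, n = 8), and the Het mean was 32.0 ± 14.7 (SD, n = 4). Among genes with the same floor of 20 CPM, the 5 with the lowest values were Nxph1, Rgs6, Gm49678, Prkg1 and Fam135b, between 12.6- and 13.4-fold lower. The floor leaves out genes that were nearest to 0 in the class.

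Among genes by which cells receive and pass on reelin, Dab1 and Vldlr were lower, while the list as a whole was near the background. Of 29 pathway genes, 28 were tested, 6 fell and none rose, where 17.2% of all genes fell, and the median log2 difference was -0.18 against -0.23 over all genes. Dab1, the adaptor phosphorylated after reelin binds, fell from 2130 to 295.7 CPM ± 98.4 (SD, n = 12), a log2 difference of -3.05 (adjusted p = 5.13e-38, edgeR). The receptor gene Vldlr fell from 69.7 to 18.2 CPM (-2.11), and Lrp8, the other receptor, stood at 147.1 against 173.9 CPM (-0.42, under the threshold of size). Nectin3, an adhesion gene, fell by 2.37 on the log2 scale, Pik3r1 by 2.00, Dcx, a microtubule gene of migrating neurons, by 1.32 and the protease gene Adamts5, on 2 UMIs, by 2.83. The kinase genes Fyn (-0.17) and Src (0.79) and the dynein regulator Pafah1b1 (0.17) did not pass. Dab1, Vldlr and Nectin3 were lower in 12 of 12 libraries.

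Of 43 transmitter and receptor genes, 40 were tested, 22 fell and none rose, where 17.2% of all genes fell and 4.55% rose. Their median log2 difference was -1.32, against -0.23 over all genes. The glutamate receptor genes Grm5 (-3.33), Grik2 (-3.08), Grin2a (-3.07) and Grin2b (-2.53) fell, as did Gad2 (-3.21), which makes GABA. Gria4, an AMPA receptor gene, stood higher by 0.52 (SE 0.08) and Gabra2, a GABA-A receptor gene, by 0.87 (SE 0.11), both under the threshold of size. Of 27 genes of ion channels and excitability, 3 rose and 8 fell, against the 4.55% and 17.2% of all genes, and their median of -0.26 was near that of all genes. The 3 that rose were Kcnh7, with 5196 to 11350 CPM against 1595 to 2334 in the other nuclei (log2 2.17, SE 0.08), Cacna2d1 (1.65, SE 0.08) and Kcnb2 (1.57, SE 0.08). Scn1a (-2.77) and Cacna1i (-3.02) were among the 8 that fell.

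Genes of guidance and contact moved both ways, with 8 higher, 22 lower and 10 not called of 40, where 4.55% of all genes were higher and 17.2% lower. Their median log2 difference was -1.24. The 8 were Cxcl12, a chemokine (log2 3.13, SE 0.24), the netrin receptors Unc5a (1.22) and Unc5b (4.62), Epha3 (1.55), Sema3e (1.36), Flrt3 (1.43), Nrg1 (1.52), which encodes a growth factor that binds Erbb4, and the cadherin Cdh4 (2.35). Sema3e was uneven within the class, at 5.74 CPM in the largest group of nuclei described further on, below the 34.8 of the other nuclei, and at 608.2 in another. Erbb4 itself fell by 3.18 and Slit2 by 2.33. Cxcr4, the receptor of Cxcl12, was on the list of Cajal-Retzius genes and stood at 13.7 against 2.05 CPM (2.52), on 27 UMIs. Of 7 neurexin and neurexophilin genes, 6 were tested, 3 fell (17.2% of all genes did) and none rose, with Nxph1 at -3.75, Nxph2 at -3.35 and Nrxn3 at -2.97. Of 20 genes of the p53 family and of cell death, 18 were tested, 2 fell and none rose, where 17.2% of all genes fell. The 2 were Slc12a2 and Slc12a5, chloride transporters, so no gene of the p53 family or of cell death itself was called. Trp53, Trp63 and Cdkn1a stood at 11.7, 1.82 and 2.23 CPM against 15.9, 2.14 and 2.31.

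Of 23 genes that pattern the sources of these cells, 14 were tested, 3 rose and 5 fell, against the 4.55% and 17.2% of all genes, with a median log2 difference of -0.22. Lhx9 (4.62), Dmrta2 (1.54) and Zic2 (1.11) rose, and Zic1, counted with the identity genes, rose by 1.24. Rspo2, a secreted Wnt agonist (-2.68), and the nuclear receptor Nr2f1 (-1.85) were among those that fell, as were Emx1 and Otx1 on 1 and 2 UMIs. Too few UMIs were present to place the nuclei by source, since Wnt3a, Dmrt3 and Fgf15 had 1 UMI each and Dbx1 and Dlx5 had 0. Markers of other cells were mostly lower over the class as a whole, though not in each of the groups of nuclei described further on. Among 10 genes of cortical excitatory neurons, 9 fell and none rose, and their summed level was 620.4 to 1113 CPM against 4181 to 5335 in the other nuclei. Of 7 pan-GABAergic genes 6 fell, of 6 tested genes of medial ganglionic eminence cells 5 fell and Kcnc2 rose, all 3 tested of the caudal eminence fell and all 7 tested striatal genes fell. Of 9 genes of glia and progenitors 8 fell, of 5 oligodendrocyte genes 3, of 6 tested endothelial and mural genes 3 and of 6 tested meningeal genes 6. The tested microglial (4), choroid and ependymal (1) and mitral and tufted cell (2) genes did not pass, and of 2 tested thalamic and hypothalamic genes Lhx9 rose and Tcf7l2 fell. Dlx2, Nkx2-1, Lbhd2, Lum and Kcnj8 were at 0 UMIs in all 639 nuclei.

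A closer comparison used the 980 nuclei that held Reln together with Lhx6, whose median of 3134 UMIs was near that of the Cajal-Retzius nuclei. Of 3172 genes outside the rule, 661 (20.8%) passed, 252 of them (7.94%) higher in Cajal-Retzius nuclei and 409 (12.9%) lower. Without a filter on low counts 2028 of 25334 genes tested passed, a smaller share (8.01%). Ndnf remained higher by 4.49 (SE 0.14), Ebf2 by 5.64 (SE 0.27), Unc5b by 4.98 (SE 0.29), Cacna2d1 by 4.25 (SE 0.19), Nrg1 by 3.28 (SE 0.14), Car10 by 3.22 (SE 0.13) and Kcnh7 by 2.88 (SE 0.12), on the log2 scale. Slc17a6 and Zic1 were higher by 3.36 and 3.37. Nxph1 was lower by 6.44 (SE 0.20) and Gria4 did not differ past the threshold (-0.14, SE 0.10, adjusted p = 0.270, edgeR). Both classes hold Reln, but at a median of 55 UMIs in the Cajal-Retzius nuclei and 5 in the nuclei with Lhx6. The genes above differed at a like total depth, between sets that were themselves split by Lhx6, a gene of the rule. How far that choice sets the difference in interneuron genes such as Nxph1 was not tested.

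The 639 nuclei were not uniform. K-means on 10 principal components, computed without the genes of the rule, was set to 3 groups after the values had been seen, so the groups are a description and carry no test. Group 1 held 449 nuclei (70.3%), group 2 115 and group 3 75 (11.7%). When 2 or 4 groups were asked for, all 449 nuclei of group 1 stayed together, and with 5 groups 59.9% did. Of group 2, 74.8% stayed together with 4 groups and 71.3% with 5, and of group 3, 96.0% with each.

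Group 1 had a median of 70 Reln UMIs, with the 10th and 90th percentile at 33.8 and 115.2, and Trp73 in 94.2% of its nuclei. Of the identity genes it held Ndnf at 1633 CPM, Car10 at 3053 and Nhlh2 at 123.6. Of other genes named above it held P2rx5 at 95.8, Cxcl12 at 144.5 and Kcnh7 at 11840. The identity genes Ebf1, Ebf2 and Slc17a6 were higher in group 2. Its own leading genes included Lrig3, a regulator of receptor signalling (303.9 CPM against 0 in group 2), Sntb1 (222.8 against 3.34) and the kinase gene Syk (157.3 against 3.34). Dab1 stood at 125.7 CPM.

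Group 2 had the opposite balance of Reln and Ebf3, 2 rule genes that had not entered the grouping. The groups were numbered by their median Reln, group 1 for the highest and group 2 for the lowest, so low Reln follows from the number. Gm10475, which lies inside Reln, was not left out with the genes of the rule. Reln had a median of 7 UMIs, and Ebf3 was in 100% of its nuclei with a mean of 5.08 UMIs, against 1.49 in group 1 and 1.64 in group 3. Trp73 was found in 73.9%. The related factors Ebf1 (1275 CPM against 121.1 in group 1) and Ebf2 (580.6 against 144.2) and the LIM gene Lhx9 (106.9 against 23.0) were also higher, as was Slc17a6 (252.2 against 130.3). Leading genes were Shisa6, which encodes an AMPA receptor auxiliary protein (3867 CPM against 19.9 in group 1 and 185.4 in all other nuclei), Egfem1 (3423 against 24.5), the glutamate receptor Grm8 (3286 against 159.8), Sorcs3, a sorting receptor (2131 against 26.3), and Sema3e, a secreted guidance cue (608.2 against 5.74). Unc5c, a netrin receptor, stood at 2959 CPM against 146.4. The identity genes outside the rule summed to 4106 CPM in group 2, between the 6794 of group 1 and the 923.1 of the other nuclei. Of the 4106, Ebf1 gave 1275 and Ebf2 580.6, and Ebf1 was not called for the class as a whole. Single genes of that list were lower than in group 1, with Ndnf at 277.2 CPM and Car10 at 253.8, both above the other nuclei (10.2 and 67.4). Cxcl12 stood at 6.68 and P2rx5 at 3.34 CPM. The 10 cortical excitatory markers summed to 761.0 CPM, above the 440.4 of group 1 and below the 4795 of the other nuclei. Markers of mitral and tufted cells were higher than elsewhere, with the 5 summing to 63.5 CPM against 8.78 in group 1 and 17.0 in the other nuclei, of which Cdhr1 gave 50.1, while Tbx21 and Lbhd2 were at 0. Thalamic and hypothalamic markers, Lhx9 among them, summed to 116.9 CPM against 30.4 and 46.0. The part of other cell types in these values was not tested. Group 2 is called here only by its leading genes.

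**Figure D1:**
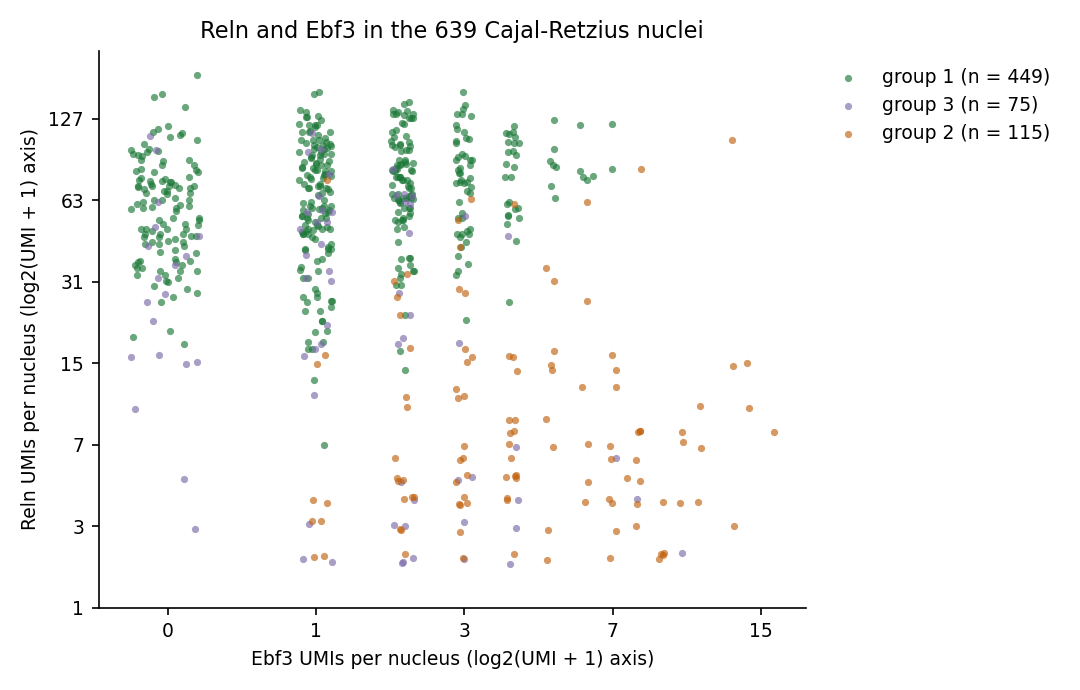
Each point is 1 of the 639 Cajal-Retzius nuclei, with Ebf3 UMIs on the x axis and Reln UMIs on the y axis, both on a log2(UMI + 1) scale with a small random shift, coloured by group. Group 1 sits at high Reln (median 70 UMIs) and low Ebf3, and group 2 at low Reln (median 7) and higher Ebf3 (mean 5.08). The groups were numbered by their median Reln.

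Group 3 lay between group 1 and the other nuclei of the forebrain. Reln had a median of 23 UMIs, and its leading genes were ones that are common elsewhere, with Mef2c at 1089 CPM against 65.6 in group 1 and 1777 in the other nuclei, Dab1 at 1443 against 125.7 and 2140, and Tnr at 524.0 against 16.8 and 640.2. The summed level of the 10 cortical excitatory markers was 2912 CPM, against 440.4 in group 1, 761.0 in group 2 and 4795 in the other nuclei. Striatal markers summed to 1449 CPM against 2665 in the other nuclei, those of the caudal eminence to 771.5 against 1184 and pan-GABAergic ones to 306.1 against 342.6. Its median doublet score was 0.60, against 0.36 in group 1, 0.46 in group 2 and 0.30 over all filtered nuclei, its median depth was 3698 UMIs, and 9 of the 10 nuclei marked as doublets were in it. The part of doublets in the values of group 3 was not tested.

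**Figure D2:**
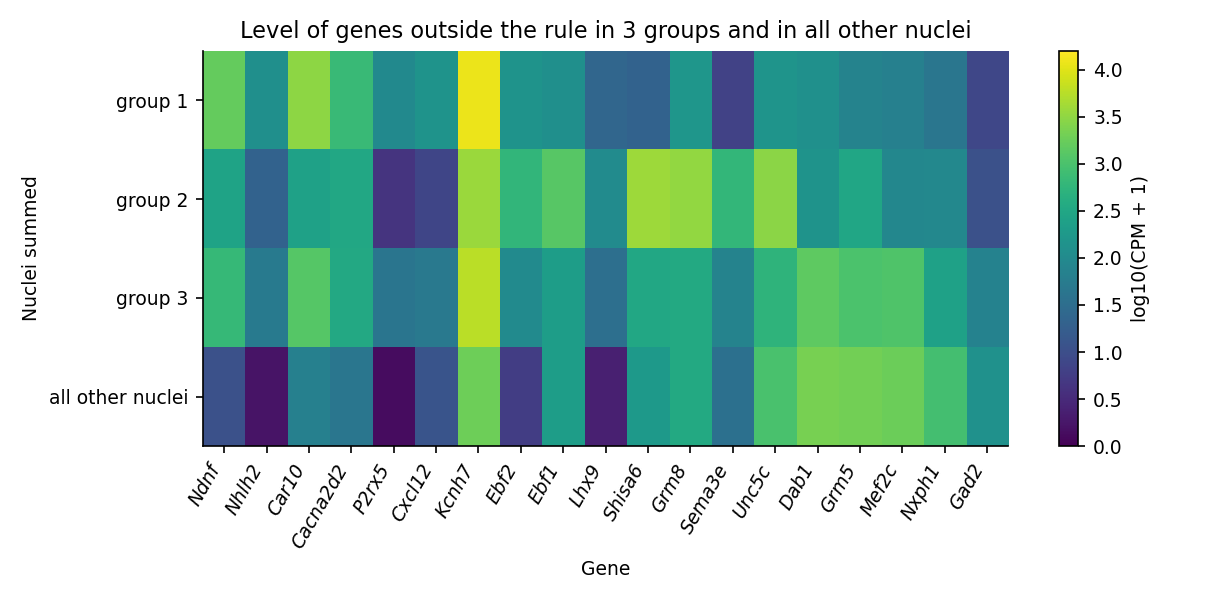
Rows are the summed nuclei of groups 1, 2 and 3 and of all other filtered nuclei, columns are genes outside the rule, and colour gives log10(CPM + 1). Ndnf, Car10 and Kcnh7 are bright in group 1, Shisa6, Grm8 and Unc5c in group 2, and group 3 lies between group 1 and the other nuclei for Dab1, Mef2c and Nxph1.

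The libraries differed in how much of group 2 they held. Its share of the Cajal-Retzius nuclei was 25.0%, 19.5%, 29.8%, 6.90%, 8.89%, 35.9%, 0% and 55.3% in WT 1 to WT 8 and 15.3%, 8.89%, 1.25% and 24.3% in Het 1 to Het 4. The 0 of 52 nuclei in WT 7 allows a share of up to 6.88%, and 21 of 38 in WT 8 has a 95% Wilson interval of 39.7% to 69.8%. These are the lowest and highest of the 12 libraries, and the intervals cover counting error only. WT 8 had the lowest median of Reln, 11 UMIs per nucleus, and WT 6 the next lowest, 22, where the other libraries had 49 to 70. WT 3, with 29.8% of its nuclei in group 2, had the highest, 70. Group 3 varied less, from 6.38% to 17.2% in WT and from 8.89% to 15.0% in Het libraries. The labels do not give which parts of the forebrain each dissection held.

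**Figure D3:**
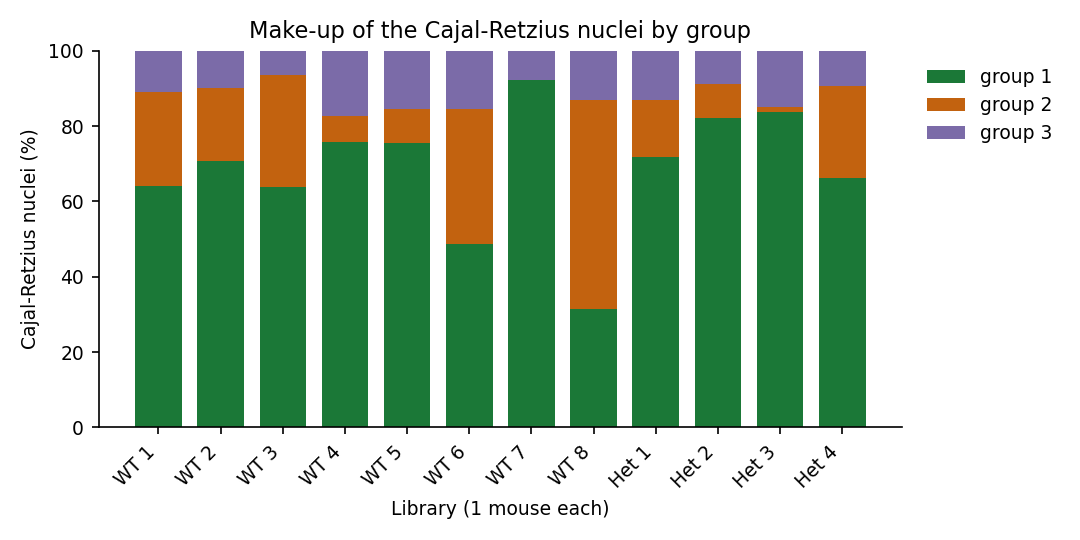
Stacked bars give the percentage of the Cajal-Retzius nuclei of each library in groups 1, 2 and 3. Group 2 ranges from 0% in WT 7 to 55.3% in WT 8, and in the Het libraries from 1.25% to 24.3%.

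The nuclei were also split by Trp73, a gene of the rule, so what follows is a description and supports nothing about Trp73 itself. Only WT 8, Het 1 and Het 4 had at least 10 nuclei with and 10 without a Trp73 UMI, 162 and 35 nuclei in all. Nuclei without Trp73 had to hold the other factors to meet the rule, and their Ebf3 was 2202 against 1274 CPM, 1299 against 596.9 and 1050 against 670.4 in these libraries, while Reln was lower in all 3. Of 1185 genes outside the rule 7 (0.591%) were past the threshold in edgeR, all higher without Trp73, a count that cannot be told apart from the effect of the rule. They were the glutamate receptor gene Grm5 (log2 difference with minus without Trp73 of -2.37), Lhfpl3 (-2.11), Ptprt, a phosphatase of the cell surface (-1.99), the protocadherins Pcdh7 (-1.93), Pcdh15 (-1.46) and Pcdh9 (-1.31), and Gm20754 (-1.45). Lhfpl3, for example, stood at 1964 against 315.7 CPM in WT 8, 566.5 against 158.7 in Het 1 and 417.4 against 128.3 in Het 4. Shisa6, Sema3e and Sorcs3, leading genes of group 2, were not among them. The count rests on single libraries of both genotypes. It was 0 of 1243 genes tested without Het 4, 16 of 1188 (1.35%) without Het 1 and 58 of 2274 (2.55%) without WT 8.

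Cajal-Retzius nuclei made up 0.580%, 0.560%, 0.757%, 0.537%, 0.548%, 0.616%, 0.510% and 0.792% of the filtered nuclei in WT 1 to WT 8, and 0.776%, 0.420%, 0.681% and 0.839% in Het 1 to Het 4. The Het libraries thus held both the lowest share, in Het 2 (95% Wilson interval 0.314% to 0.561%), and the highest, in Het 4 (0.669% to 1.05%), and the genotypes overlapped throughout. WT libraries had a mean of 0.613% ± 0.105 (SD, n = 8), and Het libraries had 0.679% ± 0.185 (SD, n = 4). The difference of 0.0664 percentage points was within the spread between libraries (exact permutation test, two-sided, p = 0.432, adjusted p = 0.950 over 4 measures, where 0.00404 is the smallest p the design allows). With male libraries alone it was 0.0290 points. Shares count nuclei relative to all nuclei of a library and not the number of cells in the tissue.

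**Figure D4:**
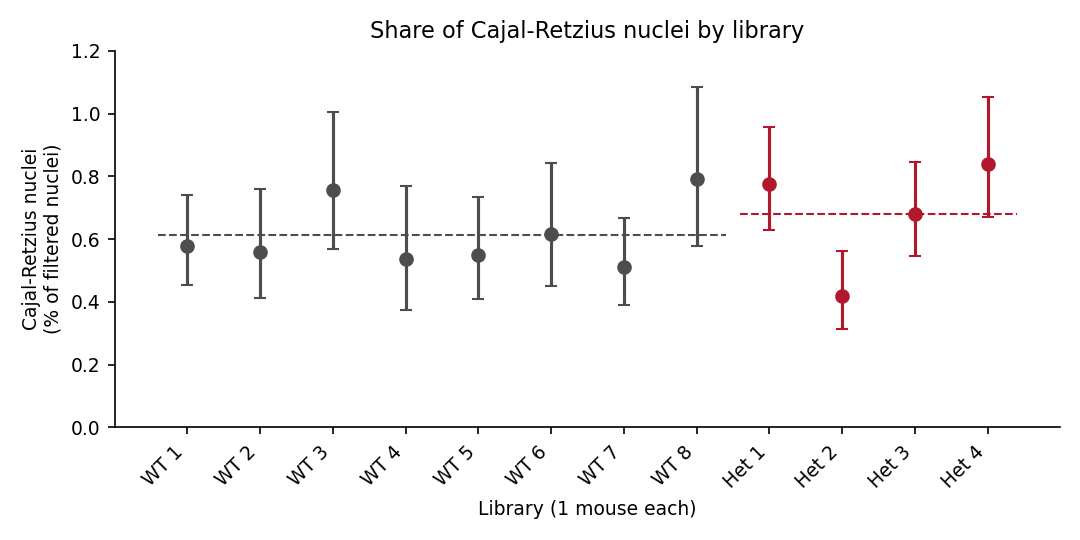
Points give the share of filtered nuclei that were Cajal-Retzius nuclei in each library, with 95% Wilson intervals, WT in grey and Het in red, and dashed lines give the means of 0.613% and 0.679%. The 4 Het libraries span from 0.420% to 0.839% and overlap the WT libraries.

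WT libraries held a Trp73 UMI in 87.3% ± 7.05 (SD, n = 8) of their Cajal-Retzius nuclei and Het libraries in 88.8% ± 6.91 (SD, n = 4), from 73.7% in WT 8 to 96.2% in WT 7 and Het 3. Trp73 is a gene of the rule, so this share is a description only. Thinned to 800 UMIs per nucleus, the share fell to 28.9% to 56.1%. The median depth was 3124 UMIs ± 474 (SD, n = 8) and 3036 ± 385 (SD, n = 4), and the median number of genes 1650 ± 160 and 1646 ± 111, again within the spread (exact permutation tests, p = 0.743 and 0.950). As a description, WT libraries held 0.387% ± 0.0793 (SD, n = 8) of their filtered nuclei in group 1 and Het libraries 0.507% ± 0.108 (SD, n = 4), with Het 1, Het 3 and Het 4 above the highest WT library and Het 2 below the WT mean. Group 2 was 0.153% ± 0.142 and 0.0922% ± 0.0881. Median Reln per nucleus was 51.2 ± 22.4 UMIs in WT and 55.4 ± 4.96 in Het libraries.

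Across genes, no difference between Het and WT Cajal-Retzius nuclei passed the test. Of 2982 genes outside the rule, 0 (0%) had an adjusted p under 0.05 with a log2 difference of at least 0.2 in edgeR's quasi-likelihood test, and the smallest adjusted p was 0.992. At an unadjusted p under 0.05 stood 122 genes (4.09%), 57 higher (1.91%) and 65 lower (2.18%) in Het. DESeq2 likewise called 0 genes, with 76 at an unadjusted p under 0.05. The median standard error of a log2 difference was 0.22, and single genes with a difference of about 1 on the log2 scale also did not pass with these nuclei.

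Myt1l (chromosome 12, 29528384 to 29923213, plus strand), the mutated gene, was present in the nuclei of both genotypes. It had 904 to 1233 CPM in WT libraries, with a mean of 1017 ± 113 (SD, n = 8), and 1005, 1080, 936.8 and 1081 CPM in Het 1 to Het 4, with a mean of 1026 ± 69.1 (SD, n = 4). The log2 difference was 0.02 (SE 0.12, adjusted p = 0.999, edgeR), and the genotypes overlapped. A frameshift allele can still be transcribed, so the level of the message does not check the labels. Myt1l was lower in Cajal-Retzius nuclei than in all others, 1020 CPM ± 97.3 (SD, n = 12) against 1477, in 12 of 12 libraries (log2 -0.72, SE 0.08, adjusted p = 6.69e-16, edgeR), which is under the threshold of size. In group 1 it stood at 872.7 CPM and in group 2 at 1496. Its relatives Myt1 (42.2 against 55.0 CPM) and St18 (7.71 against 14.9) were sparse, and only St18 passed (-1.09). Of the 3 genes only Myt1l had enough counts for the test of genotype.

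The gene lists held no called gene for genotype either. Of the 13 identity genes tested 0 had even an unadjusted p under 0.05, with a median log2 difference of -0.11 against -0.01 over all genes, and Ndnf (0.15), Car10 (0.14), Nhlh2 (0.29) and Ebf2 (-0.26) stayed near 0 relative to their errors. The same held for 14 reelin pathway genes (median -0.11), 4 genes of the p53 family and cell death (0.03) and 4 neurexins and neurexophilins (0.10). Among 22 transmitter and receptor genes 1 reached an unadjusted p under 0.05 (Gabrb2, -0.40), among 27 guidance genes 1 (Sema3a, -1.88) and among 18 ion channel genes 3, among them Cacna2d3 (0.58) and Cacna1b (-0.32), against 4.09% of all genes. None of the tested marker genes of other cell types did, though summed levels varied between libraries. Cortical excitatory markers summed to 644.7 to 1113 CPM in WT and 620.4 to 1088 in Het nuclei, and pan-GABAergic markers to 18.5 to 205.8 and 48.3 to 94.3.

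The 10 genes with the smallest p are named as not called, all with an adjusted p of 0.992. Dock10, a regulator of small GTPases, had a WT mean of 73.8 CPM ± 18.5 (SD, n = 8), up to 92.5, and 135.7, 88.6, 131.1 and 197.3 CPM in Het 1 to Het 4 (log2 0.91, unadjusted p = 3.60e-04 in edgeR). Usp25, a deubiquitinase gene, had 98.6 ± 36.1 in WT and 43.8 ± 19.1 in Het libraries (log2 -1.18). Cdh18, a cadherin of neurons, had 619.4 ± 196.5 and 979.7 ± 161.1 (0.65), and Cacna2d3, a calcium channel subunit, 524.6 ± 147.0 and 786.4 ± 105.8 (0.58). Of these only Dock10 had 3 of 4 Het libraries clear of every WT library. Kansl3 (-0.998), Sh3bgrl2 (-0.99), Cntn3 (-0.56), Bdp1 (0.56), Gm37376 (0.61) and Olfm2 (-0.71) made up the 10. For Bdp1, a subunit of the RNA polymerase III machinery, the lowest Het library (114.0 CPM) stood above the highest WT library (112.4). Over all genes 8 of 2982 (0.268%) had genotypes that did not overlap.

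**Figure D5:**
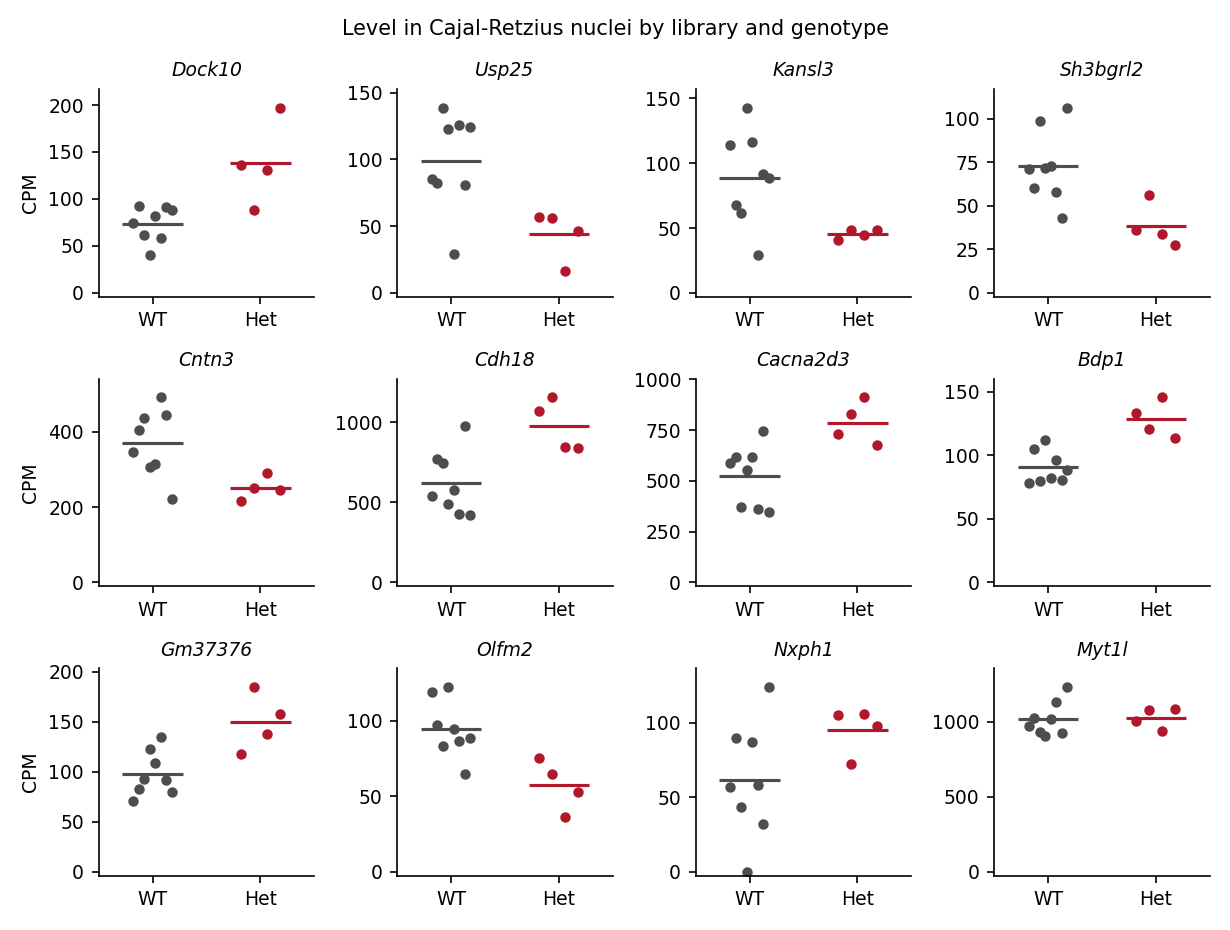
Points give CPM in the Cajal-Retzius nuclei of each library for the 10 genes with the smallest p between genotypes, for Nxph1 and for Myt1l, WT in grey (n = 8) and Het in red (n = 4), and lines give means. Libraries of the genotypes overlap in all panels but that of Bdp1, and Myt1l is level at means of 1017 and 1026 CPM.

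Nxph1 (chromosome 6, 8948431 to 9249032, plus strand) encodes neurexophilin 1, a secreted ligand of alpha-neurexins. It was low in Cajal-Retzius nuclei, with 57.0, 89.96, 43.2, 0, 87.2, 57.9, 32.4 and 124.1 CPM in WT 1 to WT 8 and 105.1, 72.5, 105.4 and 97.9 in Het 1 to Het 4. All 12 values lay below those of the other nuclei, whose mean was 906.4 CPM. WT 4 had no Nxph1 UMI, and WT 8 had the highest value. The WT mean was 61.5 ± 38.5 (SD, n = 8), the Het mean 95.2 ± 15.5 (SD, n = 4), and the log2 difference of 0.68 (SE 0.34, unadjusted p = 0.0575, adjusted p = 0.992, edgeR) was not called. Its direction turned when the rule was loosened to 1 UMI in each part (-0.60) or when nuclei above 6000 UMIs were let in (-1.36). Within the class, Nxph1 stood at 43.1 CPM in group 1, 90.2 in group 2 and 253.6 in group 3, and 158 UMIs of it were counted in all 639 nuclei. It was found in 10.3% of Cajal-Retzius nuclei and 23.9% of the others.

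A test of the difference itself asked whether Het and WT nuclei differed otherwise in the Cajal-Retzius class than in all other nuclei. Of 16416 genes outside the rule 6 (0.0365%) passed in edgeR, 4 (0.0244%) with a higher and 2 (0.0122%) with a lower Het against WT difference in Cajal-Retzius nuclei, and 908 had an unadjusted p under 0.05. Most of the 16416 genes entered through their counts in the other nuclei, since only 2982 had enough counts in Cajal-Retzius nuclei alone. Grik3, Etl4 and Otx2os1 were not among the 2982, and Cdh18, Ofcc1 and Usp25 were but did not pass there. The count was 3 without Het 1, 10 without WT 5 or Het 2, 11 without WT 8, 15 without Het 4 and 16 without WT 7, and from 4 to 9 without any other single library. Cdh18 stood at 839.7 to 1159 CPM in Het and 419.7 to 976.6 in WT Cajal-Retzius nuclei, which overlapped, and in the other nuclei at 364.7 to 606.4 and 402.8 to 573.9 (difference 0.90 on the log2 scale, adjusted p = 0.00215, edgeR). It was not called in edgeR without Het 1 (adjusted p = 0.277). Grik3, a kainate receptor gene, had 32.4 to 43.9 CPM in Het and 0 to 21.8 in WT Cajal-Retzius nuclei, and 116.2 to 180.8 and 122.6 to 225.5 in the other nuclei (2.30, adjusted p = 0.00215, edgeR). This rests on 46 UMIs in the class, and Grik3 entered the test through the other nuclei, where it is high, so the call is given as a value only. In group 3 it stood at 97.7 CPM against 12.8 in group 1. With group 1 alone, a set chosen after the values were seen, it did not pass in edgeR (adjusted p = 0.182).

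Ofcc1 was high in the class, with 4.83 to 83.7 CPM in WT and 139.8, 153.1, 168.8 and 48.4 in Het 1 to Het 4, against 2.60 to 5.25 in the other nuclei of any library (difference 1.48, adjusted p = 0.00484, edgeR). It was not called in edgeR without Het 1 (adjusted p = 0.0937) or Het 3 (adjusted p = 0.425). It stood at 108.2 CPM in group 1 and 0 in group 2, and WT 6 and WT 8, the libraries with the largest share of group 2 among their Cajal-Retzius nuclei, were its lowest. Fits on group 1 alone, a set chosen after the values were seen, are a description and lend the calls no support. In them the difference was 1.37 for Ofcc1 and 0.83 for Cdh18. Etl4 (adjusted p = 0.354, edgeR), Usp25 (adjusted p = 0.757) and Otx2os1 (adjusted p = 0.881) were not called. Etl4 (1.58) had 82 UMIs, 153.4 CPM in group 3 and 20.03 in group 1, and in the other nuclei it was 203.4 to 415.5 in Het and 322.5 to 446.8 in WT libraries. It was not called in edgeR without Het 1 (adjusted p = 0.734). Usp25 (-1.27) was higher in group 2 (188.7 CPM) than in group 1 (51.8) and was not called in 8 of the 12 fits that left out a library. The call held only without WT 2, WT 5, WT 7 or Het 2. Otx2os1, the antisense neighbour of Otx2 whose span overlaps 11 other annotated genes, had 16 UMIs in the class, 12 of them in WT 2, and 0 in the 4 Het libraries after rounding. Its fitted difference of -10.88 depends on these zeros, is no measure of size, and was not called in edgeR without WT 2 (adjusted p = 0.798) or Het 3 (adjusted p = 0.214). With group 1 alone, 11 genes (0.0681%) passed, all with a higher difference in the class. The median difference over all genes of that fit was itself above 0, at 0.12. Between Het and WT nuclei of group 1 alone, 0 genes were called.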

How the data were processed

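Nuclei from the forebrain of 12 mice at postnatal day 1 were processed with a split-pool kit (Scale Biosciences). The authors mapped and counted with the kit's ScaleRna workflow on mm10 and deposited 1 matrix per library. Its values are expected counts of UMIs, as 6.58% to 6.88% of entries were not whole. How a UMI was divided between genes, and whether strand was used, was not stated in what was read here. Seurat 4.3.0 stands in the submitters' processing notes. The deposited expected counts were summed per library over the nuclei of each class and rounded. Of 55335 gene identifiers 54587 matched GENCODE M21, from which positions were taken. The members and gene lists were chosen with earlier results of these data known. Classes were compared with edgeR 4.0.16 (quasi-likelihood test, trimmed mean of M-values scaling, Benjamini-Hochberg adjustment, a filter on low counts, R 4.3.3), with the library as a block between classes and genotype alone between animals. A call between classes needed an adjusted p under 0.05 and a log2 difference of 1, and between genotypes of 0.2. Genes of the rule were left out of counts of calls. DESeq2 1.42.0, relative log expression scaling, no filter, stricter and looser gene rules, thinning to 800 UMIs, males alone, leaving out each library and a replicate block were tried. Shares were compared by exact permutation tests (scipy 1.17.1) and limma 3.58.1, with 95% Wilson intervals. Doublets were scored by the share of simulated pairs among 50 neighbours, and the top 5% of each library marked. The groups came from k-means (scikit-learn 1.9.0). Named genes were members of the lists, the genes with the largest difference at 20 CPM or more, and the 10 with the smallest p between genotypes. Samples of other ages were not analysed here, and some genes of the lists are not reported here. The fits of genotype and of Cajal-Retzius against other nuclei were also run on simulated counts. Those had the same spread for all genes and planted log2 differences above 1. Smaller differences, the Trp73 split and the test of the genotype difference between classes were not simulated.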

Additional observations from a re-analysis of the deposited data

Results flagged for a closer look

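In 6 genes the Het against WT difference in Cajal-Retzius nuclei passed a test against that in all other nuclei (edgeR, 8 WT and 4 Het libraries). Grik3, Etl4 and Otx2os1 entered that test only through their counts in the other nuclei, 5 of the 6 were lost without at least 1 single library, and the number of genes ran from 3 to 16 over libraries left out. The values, in log2, were 0.90 for Cdh18, 2.30 for Grik3, 1.48 for Ofcc1, 1.58 for Etl4, -1.27 for Usp25 and -10.88 for Otx2os1. The Otx2os1 value rests on 16 UMIs, 12 of them in WT 2. Dixon's criterion compares the gap between the highest or lowest library of a genotype and its nearest neighbour with the whole range. It was applied to 86 sets of library values, namely shares, depth, the rule genes, and the genes named for size, genotype or the difference between classes. About 1 in 20 sets would be flagged by chance if values were normally distributed, which counts near 0, as for Otx2os1, are not. The criterion flagged 6 sets, with WT 8 and Het 2 each in more than 1. These were WT 8 for Dsp (274.9 CPM, next 59.98), WT 4 for Gm49678 (132.8, next 58.1), WT 8 for Etl4 (79.8, next 32.9), WT 2 for Otx2os1 (89.96, next 7.26), and Het 2 for Rgs6 (56.4, next 88.1) and for Otx2os1 (4.03, next 0). The Otx2os1 value of Het 2 comes from a fractional count that is 0 after rounding.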

How the results depend on the processing

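Genes called between Het and WT Cajal-Retzius nuclei numbered 0 whichever library was left out. The count was 1 with all deposited barcodes (0.0178% of 5630 genes) or with no UMI ceiling (0.0178% of 5619), Ccdc141 at 2.33 in both. It was 1 with male libraries (0.0343% of 2919, Ofcc1, 1.59). Without the filter on low counts it was 2 (0.00943% of 21218, Ofcc1, 1.502, and Cdh18, 0.72). With the replicate block it was 37 (1.24% of 2987). That block joins sex and title number, so WT 4, WT 5, WT 7 and WT 8 stood alone in theirs and added nothing to the genotype difference. The 37 calls thus rest on Het 1 to Het 4 against WT 1, WT 2, WT 3 and WT 6. Same-numbered Het and WT libraries correlated at 0.011, 0.0757, -0.0582 and 0.21. Libraries of unlike number were not compared, so whether the numbers pair the animals is not settled by these values. The study states that its samples were mostly littermates, and which animals shared a litter was not known here. Against Reln nuclei with Lhx6, 2028 of 25334 genes (8.01%) passed without the filter, where 20.8% passed with it. The Trp73 split gave 48 of 17045 genes (0.282%) without the filter and 16 of 1188 (1.35%) with doublets left out, which drops Het 1. It gave 0 of 1243 to 58 of 2274 genes (2.55%) when a library was left out. The test of the genotype difference between classes gave 3 (0.0179%) to 16 genes (0.0983%) over single libraries left out and 11 (0.0681%) in group 1 alone. The Nxph1 difference became -0.60 with the looser rule and -1.36 with all barcodes or no ceiling, and ran from 0.55 to 0.86 over libraries left out. The Myt1l difference became -0.0216 with all barcodes and -0.0206 with no ceiling, and ran from -0.00846, without Het 2, to 0.0636 over libraries left out. The Trp73 share difference ran from -0.901, without Het 3, to 4.61 percentage points and that of median depth from -231 to 71.9 UMIs, the latter without Het 2. The share of Cajal-Retzius nuclei stayed higher in Het, by 0.0129 to 0.153 points over libraries left out, and by 0.0344 after thinning. The cause of these changes was not tested. Alternatives limited to group 1 or without the UMI ceiling were chosen after seeing the data.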
